A study of Mus musculus with 4 samples.

Results

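The AP-1 factors of the Fos and Jun families were followed in heart muscle cells of mice with and without a pressure load on the heart. The 10 genes were taken by symbol (Fos, Fosb, Fosl1, Fosl2, Jun, Junb, Jund, Atf3, Maff and Mafk) from the 22322 genes listed for each library. All 10 were listed, 9 passed the filter on low counts and were tested, and Fosl1 had no count in any library.

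Per the labels, RNA sequencing was done on cardiomyocytes of 2 sham-operated mice (sham 1 and sham 2) and of 2 mice with transverse aortic constriction (TAC 1 and TAC 2), in which surgery narrows the aorta and makes the left ventricle pump against a higher pressure. Per the methods of the study, male mice were operated on at 2 months of age and examined 14 weeks later, although the mice used for isolation are also described as 14 weeks old, so that their age is uncertain, and each library came from part of the myocytes of 1 heart, which was taken apart by perfusing enzymes through the coronary vessels (Langendorff isolation). The sources used here do not give the strain, no transgene is named, and both groups went through the same isolation. The study used these libraries to find genes altered in the failing heart. With 2 mice a group, the p-values rest on a spread that edgeR pools over genes.

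AP-1 is a pair of proteins joined through leucine zippers. A Jun protein can pair with itself or with a Fos protein, whereas Fos proteins need a Jun partner, and the pair binds the DNA motif TGANTCA near its target genes. Atf3 is a related stress-induced protein that pairs with Jun proteins and often represses. Maff and Mafk are small Maf proteins, which lack an activation domain and pair with larger bZIP partners such as Nfe2l2 and Bach1. Fos, Fosb, Jun, Junb and Atf3 are immediate early genes: their promoters answer to growth factors, stretch, calcium and stress within minutes through kinases and factors that are already present, and their mRNAs are short-lived. Jund is transcribed more steadily. In the heart these genes are known to be induced soon after a pressure load begins and also by handling or isolating the tissue.

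The libraries held 24237777 to 32118323 expected counts, with 14495 to 14949 genes detected. Mitochondrial genes (13 in the files) made up 39.84% to 40.85% of the counts of sham 1, sham 2 and TAC 2, and 47.42% of those of TAC 1. Replicates differed by more than sampling noise, with a chi-square statistic per degree of freedom of 8.08 between the sham libraries and 26.71 between the TAC libraries. TAC 1 stood apart: the statistic was 60.98 for TAC 1 against sham 1 and 50.11 against sham 2, while TAC 2 was nearer to sham 1 (22.52) and sham 2 (21.89) than to TAC 1. The 8 cardiomyocyte markers (such as Myh6, Tnnt2 and Ryr2) summed to between 64100 and 71500 CPM in each library, where CPM is the count scaled to a common library size after a TMM correction for library composition. The defining markers of the labelled cell type were thus high in every library, and the main edgeR fit called none of the 8 different. DESeq2 called Actc1 (log2 0.35, adjusted p 0.00555) and Myl2 (0.41, 0.000419) higher and Ryr2 (-0.38, 0.00249) lower. Myl2 (adjusted p 0.0373) and Ryr2 (0.045) were also called by limma-voom. edgeR called Ryr2 lower with total counts (adjusted p 0.049) and with totals that leave out mitochondrial genes (0.0307). With no low-count filter, edgeR called Actc1 (0.0462), Myl2 (0.0145) and Ryr2 (0.0166). In isolated cells measured in bulk, fewer cells of a type and less RNA per cell cannot be told apart.

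The promoter stretches of Fos, Fosb, Jun and Junb are shown because these are the 4 genes that were lower in TAC, and that of a Maff start because Maff was not called and this window holds TGACGTCA, the full site of CREB and ATF proteins. They cover bases -120 to -11 from the RefSeq transcription start (GRCm38.p6, the same build as mm10). They hold no base of an annotated exon of the gene, the Maff stretch lies downstream of the annotated start of that gene, and all are written 5′ to 3′ on the strand of the gene. Capitals mark TGACG, TGACATCA or TGACGTCA, the core and longer forms of the sites that CREB, ATF and Jun proteins are known to bind.
Fos, chr12:85473770-85473879, plus strand: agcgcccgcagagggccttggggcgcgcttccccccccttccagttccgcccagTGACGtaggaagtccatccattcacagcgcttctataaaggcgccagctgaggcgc
Fosb, chr7:19310056-19310165, minus strand: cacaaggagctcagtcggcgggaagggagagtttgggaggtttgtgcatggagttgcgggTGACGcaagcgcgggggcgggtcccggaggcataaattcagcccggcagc
Jun, chr4:95052233-95052342, minus strand: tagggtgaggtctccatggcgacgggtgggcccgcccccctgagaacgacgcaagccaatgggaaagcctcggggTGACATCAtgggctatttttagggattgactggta
Junb, chr8:84978759-84978868, minus strand: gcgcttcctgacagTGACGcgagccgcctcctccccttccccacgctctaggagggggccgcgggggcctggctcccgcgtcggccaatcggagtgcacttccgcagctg
Maff, chr15:79347400-79347509, plus strand: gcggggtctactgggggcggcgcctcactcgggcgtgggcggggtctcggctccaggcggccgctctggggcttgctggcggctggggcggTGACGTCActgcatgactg

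In Fos the core TGACG lay at bases -66 to -62 from the start, in Fosb at -60 to -56, and in Junb at -106 to -102. Fos held a further TGACG at -129 to -125, outside the printed stretch. Jun instead held TGACATCA at bases -45 to -38, and 1 of 3 Maff starts, the one printed, held TGACGTCA at -29 to -22. A RefSeq promoter of 300 bases was found for 9 of the 10 genes, and Fosl1 had no entry in the table used. The RefSeq starts were not always those of the gene positions given here: the windows of Atf3 and of the printed Maff start lie inside the gene, that of Jund ends before the annotated gene, and that of Fosl2 overlaps its exons. Both strands were searched for these motifs, for the AP-1 motif TGANTCA, for the Ets core GGAA and for the CArG box (the site of serum response factor), and TGACG is contained in TGACGTCA. Over all 32851 promoters of that length, TGACG was present in 20.8%, TGACATCA in 3.6%, TGACGTCA in 1.8%, TGANTCA in 7.8%, the CArG box in 1.6% and GGAA in 96.0%. No window of a member held TGANTCA or the CArG box, which says only that these letters are not in the windows. TGACG was also present at members that were not called, in Mafk at -41 to -37 and, on the other strand, in Atf3 at -7 to -3, and another Maff start held TGACATCA at -45 to -38. The motifs were thus found at members that fell and at Maff, Mafk and Atf3, which were not called.

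In TAC, 4 of the 9 tested members fell and none rose. These were Fos and Fosb of the Fos family and Jun and Junb of the Jun family, and their levels were 3.47 to 6.34 times lower than in sham. The other 5 tested members, Fosl2, Jund, Atf3, Maff and Mafk, had log2 fold changes between -0.28 and 0.19 that did not pass the test. A member was called at a Benjamini-Hochberg adjusted p under 0.05 in the edgeR quasi-likelihood test, and adjustment ran over all 12499 tested genes. Among all of those genes 5.01% were called in either direction, 2.43% lower and 2.58% higher, against which 4 of 9 members lower and 0 of 9 higher may be read. The share of all genes called lower moved with the libraries and the scaling. It was 0.916% without TAC 1 (118 lower and 183 higher), where 3 members were called, and 6.01% without TAC 2 (776 lower and 560 higher), where 4 were. With total counts, 423 genes were called lower and 105 higher. Both TAC libraries lay below both sham libraries for the 4 called members, as they did for 30.3% of all tested genes. Mafk alone had both TAC libraries above both sham libraries, as did 29.8% of all tested genes, and the other 4 members overlapped between the groups. The 9 members had a median log2 fold change of -0.28 and 7 of 9 lay below 0, and over all tested genes the median was -0.01, with 6359 of 12499 below 0.

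**Figure D1:**
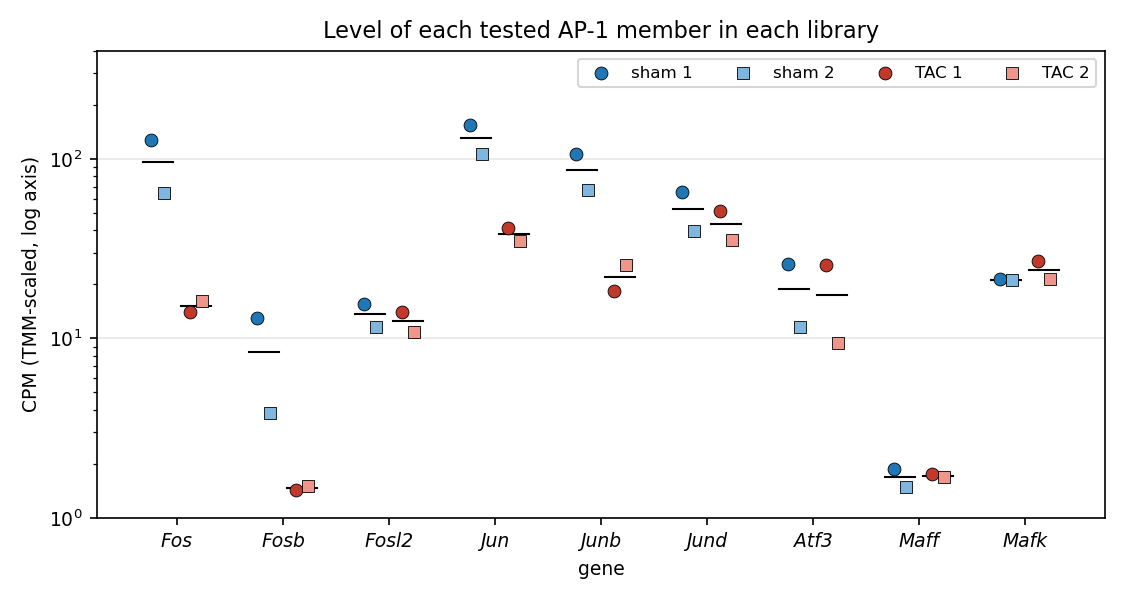
Level of the 9 tested members in each library, in TMM-scaled CPM on a log axis, with circles for replicate 1, squares for replicate 2 and a line at the mean of each group. Fos, Fosb, Jun and Junb are separated between sham (blue) and TAC (red), while Atf3 splits by library within both groups, at 26 and 11.5 CPM in sham and 25.5 and 9.41 CPM in TAC.

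Fos, the founding member of the Fos family and the partner that makes the most active pair with Jun, lies at chr12:85473890-85477273 on the plus strand with 4 exons. Its level was 127 CPM in sham 1 and 64.3 in sham 2, and 14.1 in TAC 1 and 16.2 in TAC 2. The TAC libraries lay close to each other and far below the lower sham library. The deposited counts of these libraries were 4032, 1851, 394 and 396 in the same order, so counting error was small beside the difference between the mice. The mean was 95.9 CPM with an SD of 44.6 over the 2 sham mice, against 15.2 CPM with an SD of 1.46 over the 2 TAC mice. Fos was 6.34-fold lower in TAC, with a log2 fold change of -2.66 ± 0.30 (SE) and an edgeR adjusted p of 0.00641. Part of the size of this change rested on sham 1, since without it the log2 fold change was -2.09 and without sham 2 it was -3.07. Fos was called in 10 of 10 alternative tests, at adjusted p between 1.2e-08 and 0.0127.

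Fosb, whose product pairs with Jun proteins and whose truncated splice form lasts long in cells, lies at chr7:19302696-19310051 on the minus strand with 4 exons. It was at 12.9 CPM in sham 1 and 3.82 in sham 2, against 1.43 in TAC 1 and 1.51 in TAC 2. Both TAC libraries lay below sham 2, and sham 1 stood well above the other 3 libraries. The TAC values came from only 40 and 37 counts, against 409 in sham 1 and 110 in sham 2. The change was 5.7-fold lower, with a log2 fold change of -2.51 ± 0.55 (SE, n = 2 each) and an edgeR adjusted p of 0.0467, the weakest of the 4 calls. Fosb was called in 7 of 10 alternative tests. The call was lost with limma-voom (log2 -2.28, adjusted p 0.123), with totals that leave out mitochondrial genes (log2 -2.62, adjusted p 0.0533) and without TAC 1 (log2 -2.47, adjusted p 0.114). Without sham 1 the fall was 1.37 on the log2 scale, with an edgeR adjusted p of 0.0355.

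The remaining Fos relatives encode proteins that lack the strong activation domain of Fos. Fosl1 (chr19:5447547-5455946, plus strand) had 0 counts in all 4 libraries. A count of 0 allows a level of up to 3 counts per library, which is 0.095 CPM in sham 1 and 0.104 in sham 2, against 0.108 in TAC 1 and 0.123 in TAC 2, for counting error only. Fosl2 (chr5:32135801-32157842, plus strand) was at 15.5 CPM in sham 1 and 11.6 in sham 2, against 14.1 in TAC 1 and 10.9 in TAC 2. The groups overlapped, and replicate 1 was the higher library in each. Its log2 fold change was -0.12 ± 0.18 (SE, n = 2 each, edgeR adjusted p 0.701), and its sign turned to 0.11 without sham 1 and to 0.05 without TAC 2.

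Jun, which can bind DNA with itself or with any Fos protein, is a gene of 1 exon at chr4:95049034-95052222 on the minus strand. It was at 155 CPM in sham 1 and 107 in sham 2, and at 41 in TAC 1 and 34.7 in TAC 2. No TAC library came near a sham library. The sham mean was 131 CPM (SD 33.9) and the TAC mean was 37.9 CPM (SD 4.46), from 849 to 4916 counts per library. Jun was 3.47-fold lower in TAC, with a log2 fold change of -1.79 ± 0.17 (SE) and an edgeR adjusted p of 0.00489, the lowest among the members. Its log2 fold change stayed between -2.03 and -1.50 over 11 alternatives, and it was called in 10 of 10 alternative tests.

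Junb, a Jun relative that is induced together with Fos and often acts more weakly than Jun, lies at chr8:84974484-84978718 on the minus strand. It was at 107 CPM in sham 1 and 66.9 in sham 2, and at 18.4 in TAC 1 and 25.6 in TAC 2. Both TAC libraries lay far below sham 2, and here TAC 2 was the higher of the pair. The sham mean was 87.1 CPM (SD 28.6) and the TAC mean was 22 CPM (SD 5.06). Junb was 3.97-fold lower, with a log2 fold change of -1.99 ± 0.24 (SE) and an edgeR adjusted p of 0.0078, and it was called in 10 of 10 alternative tests at log2 fold changes between -2.29 and -1.61.

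Jund, the member whose protein is kept at a steady level in resting cells, is a gene of 1 exon at chr8:70698949-70700616 on the plus strand. It was at 65.4 CPM in sham 1 and 39.8 in sham 2, against 51.1 in TAC 1 and 35.3 in TAC 2. The groups overlapped, with TAC 1 above sham 2. The log2 fold change was -0.28 ± 0.24 (SE, n = 2 each, edgeR adjusted p 0.477), and it ranged from -0.59 to 0.12 over the alternatives, with the sign turned without sham 1. Jun overlaps the antisense gene Junos, Junb overlaps Prdx2 and Jund overlaps Gm11175, each on the other strand. The sources used here do not give whether strand was used in counting, so reads of these neighbours cannot be told apart from those of the Jun genes.

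Atf3, a stress-response repressor that can pair with Jun proteins, lies at chr1:191170296-191218039 on the minus strand. It was at 26 CPM in sham 1 and 11.5 in sham 2, against 25.5 in TAC 1 and 9.41 in TAC 2. The 2 high values were replicate 1 of each group and the 2 low values were replicate 2, so that the groups covered almost the same range. The ratio of sham 1 to sham 2 was 2.25, which 1.73% of tested genes reached, and that of TAC 1 to TAC 2 was 2.71, which 0.448% reached. The log2 fold change was -0.10 ± 0.47 (SE, n = 2 each, edgeR adjusted p 0.91) and depended on which library was present, from -1.0 without TAC 1 to 0.60 without sham 1. The small gene Gm24748 lies within Atf3 on the other strand, with the same limit on strand as for the Jun genes. A change of Atf3 was therefore not detectable against the spread between mice.

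The small Maf genes varied least. Mafk (chr5:139791513-139802653, plus strand) was at 21.3 and 21.2 CPM in sham and at 26.8 and 21.5 CPM in TAC. The TAC libraries were above the sham libraries, TAC 2 by very little. The log2 fold change was 0.19 ± 0.12 (SE, n = 2 each, edgeR adjusted p 0.354), and it was -0.01 with scaling by total counts. Mafk overlaps Tmem184a on the other strand, so reads of these genes cannot be told apart either. Maff (chr15:79346621-79359076, plus strand) was at 1.86, 1.49, 1.76 and 1.68 CPM in sham 1, sham 2, TAC 1 and TAC 2, from 41 to 59 counts. Its log2 fold change was 0.03 ± 0.29 (edgeR adjusted p 0.956), with a sign that turned to -0.17 with scaling by total counts. For both genes a small change in either direction lies within these errors.

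**Figure D2:**
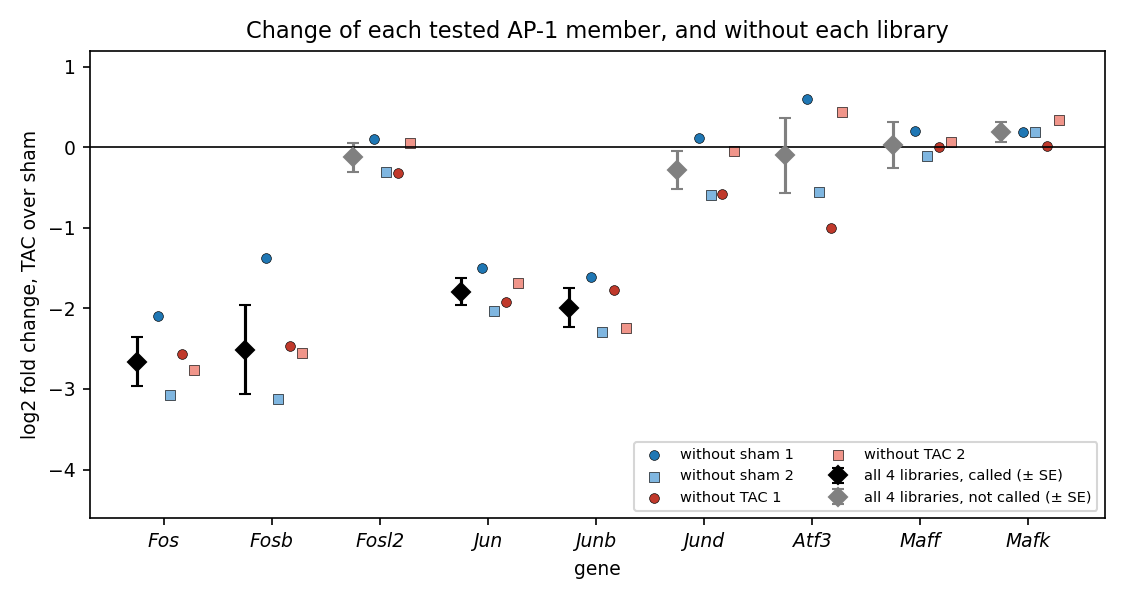
Log2 fold change of TAC over sham for the 9 tested members, with diamonds and SE bars for all 4 libraries (black where called at an adjusted p under 0.05) and coloured points for the fit without each library in turn. The 4 called members stay below -1.3 whichever library is left out, while Fosl2, Jund, Atf3 and Maff have points on both sides of 0.

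The sham mice differed from each other more than the TAC mice for the falling genes. Sham 1 exceeded sham 2 in 9 of 9 tested members, by 1.98 times for Fos, 3.38 times for Fosb, 1.45 times for Jun and 1.61 times for Junb. Ratios at least as large as these were found in 2.55%, 0.536%, 7.51% and 5.18% of all tested genes, respectively. TAC 1 exceeded TAC 2 in 6 of 9 members and was below it for Fos, Fosb and Junb. With the lower sham library alone, the ratio of sham 2 over TAC 2 was 3.97 for Fos, 3.09 for Jun, 2.62 for Junb and 2.53 for Fosb. It was 1.06 for Fosl2, 1.13 for Jund, 1.23 for Atf3, 0.891 for Maff and 0.986 for Mafk. Against TAC 1, sham 2 was higher for Fos, Fosb, Jun and Junb and lower for the other tested members. For Jun, TAC 1 was at 41 CPM and TAC 2 at 34.7, against 107 in sham 2. Together, the 10 genes took 0.0585% of all counts in sham 1 and 0.0341% in sham 2, against 0.0169% in TAC 1 and 0.0158% in TAC 2.

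Levels were compared between genes with the deposited FPKM, a level per length of transcript that is also scaled for library size. In sham 1 the order was Fos (66.31), Junb (65.10), Jun (53.44), Jund (43.03), Atf3 (14.36), Mafk (8.16), Fosb (4.25), Fosl2 (2.61) and Maff (1.08). In sham 2, Junb was at 38.43 FPKM, Jun at 35, Fos at 31.72 and Jund at 24.79. Fos thus changed place relative to Junb and Jun between the sham mice, while Junb was above Jun in both. The sham means of Fos, Junb and Jun were 49, 51.8 and 44.2 FPKM (SD 24.5, 18.9 and 13, n = 2). In TAC 1, Jund led with 26.63 FPKM, followed by Jun at 11.17, Atf3 at 11.14, Junb at 8.83, Mafk at 8.12 and Fos at 5.82. In TAC 2, Jund again led with 21.36 FPKM, before Junb at 14.25, Jun at 10.98, Fos at 7.75, Mafk at 7.60 and Atf3 at 4.78. The most abundant mRNA of the set was thus Fos or Junb in sham and Jund in both TAC libraries.

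The fall of Jun and Junb without a like fall of Jund altered the make-up of the Jun family. The 3 Jun genes summed to 161.6 FPKM in sham 1 and 98.2 in sham 2, against 46.6 in TAC 1 and 46.6 in TAC 2. Of these sums Jund made up 26.6% and 25.2% in sham and 57.1% and 45.8% in TAC. Jun made up 33.1% and 35.6% in sham and 24% and 23.6% in TAC, and Junb 40.3% and 39.1% in sham and 18.9% and 30.6% in TAC. The sham mice, although they differed 1.64-fold in the CPM of Jund itself, had almost the same shares.

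In the Fos family the sum was 73.2 FPKM in sham 1 and 34.9 in sham 2, against 8.11 in TAC 1 and 10.02 in TAC 2. Fos made up 90.6% and 90.9% in sham and 71.8% and 77.3% in TAC. Fosl2, whose own level did not pass the test, made up 3.6% and 5.3% in sham and 23.1% and 16.8% in TAC, and the share of Fosb stayed between 3.8% and 5.9%. The 2 small Maf genes summed to between 8.5 and 9.2 FPKM in each library, with 88.3% to 91.2% from Mafk.

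**Figure D3:**
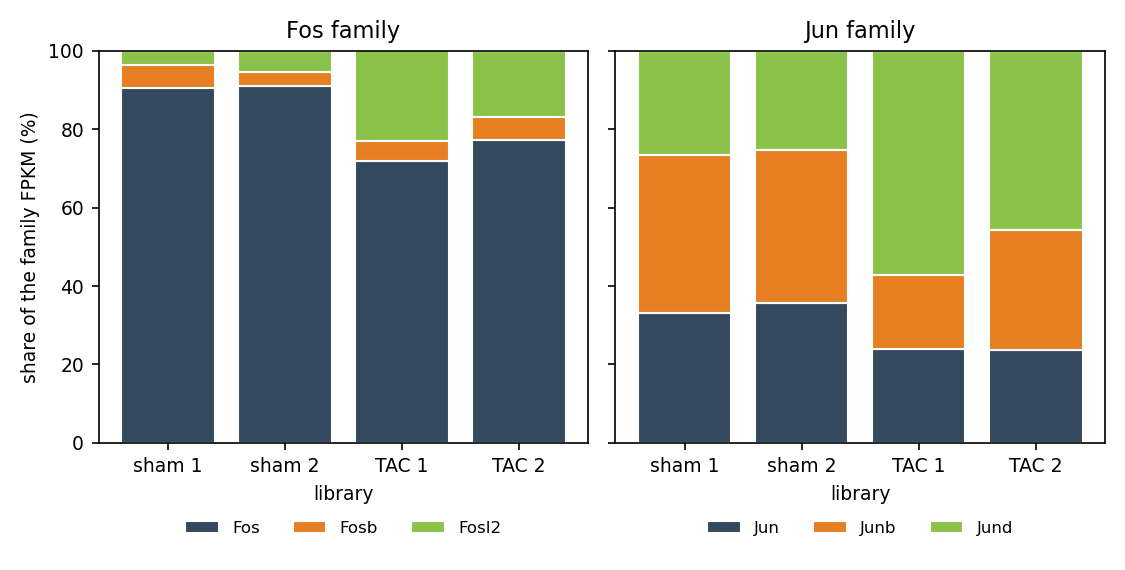
Share of each gene in the summed FPKM of the Fos family (left) and the Jun family (right), in percent, for each library, with Fosl1 at 0. The Jund share is 26.6% and 25.2% in the sham libraries and 57.1% and 45.8% in the TAC libraries, and the Fosl2 share is 3.6% and 5.3% in sham and 23.1% and 16.8% in TAC.

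Ratios within a library do not depend on how libraries were scaled. The FPKM ratio of Jund to Jun was 0.805 and 0.708 in sham and 2.38 and 1.95 in TAC, and that of Jund to Junb was 0.661 and 0.645 in sham and 3.02 and 1.5 in TAC. Jund was below both relatives in each sham library and above both in each TAC library. Fosl2 over Fos was 0.0394 and 0.058 in sham and 0.321 and 0.217 in TAC. Atf3 over Fos was 0.217 and 0.191 in sham and 1.91 and 0.617 in TAC, close in the sham mice in spite of their different Atf3 levels. By contrast, Junb over Jun was 1.22 and 1.1 in sham and 0.791 and 1.3 in TAC and overlapped between the groups. Of 9 ratios computed, these groups gave a two-sided exact permutation p of 0.333 (adjusted 0.429) for the first 4 and 1.000 for Junb over Jun, and 0.333 is the smallest value that 2 against 2 libraries allow. Fosb over Fos, Jun over Fos and Mafk over Fosl2 gave 0.333 in that test as well. Mafk over Fosl2 was 3.13 and 4.2 in sham and 4.34 and 4.52 in TAC, although neither gene was called. Separation of the groups was thus common in this set of ratios.

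The mRNAs of immediate early genes often carry ATTTA in the 3′UTR, a core of the AU-rich elements through which proteins such as Zfp36 speed decay. A site of at most 30 bases is shown for 4 genes, to set falling genes beside Fosl2. Capitals mark ATTTA, in DNA letters, and positions count from the first base of the 3′UTR of the annotated GRCm38 transcript.
Fos, bases 643 to 672: tgtgttttcaATTTATTTAttaagatggat
Jun, bases 1031 to 1060: atcATTTAtaatcataggaaagATTTAgta
Junb, bases 240 to 269: atatatttgtgtATTTAacagggaggggag
Fosl2, bases 3676 to 3705: attgacATTTAttttattATTTAttttaaa

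Fos had 4 such pentamers, 4.91 per kilobase of 3′UTR, a density that 6.2% of 11979 tested genes with a 3′UTR reached. Junb had 2 (4.12 per kilobase, reached by 9.7%) and Jun had 4 (3.24 per kilobase, reached by 17.0%). Fosb, in contrast, had 1 in a long 3′UTR (0.47 per kilobase, reached by 70.3%). Among the members that were not called, Maff had 3.28 per kilobase, Atf3 2.53, Jund 1.88, Fosl2 1.72 and Mafk 1.66, and Fosl1 had 1.57. The density thus did not separate the falling members from the others, since Fosb had the lowest and Maff stood beside Jun.

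Other genes had nearly the same pattern over the 4 libraries as Fos and Jun. Likeness was measured as the root mean square difference of log2 CPM, centred for each gene, over 4 libraries and among 8485 tested genes whose mean reached 5 CPM, and it describes these libraries only. The gene closest to Fos was Egr1, a zinc-finger immediate early factor, at a difference of 0.047. Egr1 was at 172 and 86 CPM in sham and at 19.2 and 23.6 CPM in TAC. Next came Ier2 (0.216), Nfkbiz (0.331), Zfp36 (0.388) and Apold1 (0.509). The gene closest to Jun was Btg2, an inhibitor of cell division, at a difference of 0.077, with 149 and 105 CPM in sham and 44.8 and 36.6 CPM in TAC. It was followed by Ier2 (0.244), Apold1 (0.317), Cenpf (0.320) and Slc26a10 (0.322). Egr1, Ier2, Zfp36 and Btg2 are themselves known as immediate early genes.

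A list of 23 other immediate early genes was then counted in the same fit. Of the 23, 7 fell, 1 rose and 21 lay below 0, with a median log2 fold change of -0.70 against -0.01 for all tested genes. Among all tested genes, 2.43% were called lower and 2.58% higher. The falls were Egr1 (-2.60), Ier2 (-2.25), Zfp36 (-1.93), Socs3 (-1.65), Btg2 (-1.64), Dusp1 (-1.22) and Klf6 (-0.85), at edgeR adjusted p from 0.00519 to 0.0467. Egr1, Ier2, Zfp36 and Btg2 had already been named above for their likeness to Fos or Jun. The gene that rose was Ccn2, a secreted matrix protein, at a log2 fold change of 1.02 with an edgeR adjusted p of 0.0127. Among the 7 were feedback inhibitors: Dusp1 removes phosphate from MAP kinases, and Socs3 blocks cytokine receptor signalling. Socs3 missed the threshold in 4 of the alternatives, among them limma-voom (adjusted p 0.0663) and the fit without TAC 1 (adjusted p 0.122). More genes of the list were called without sham 2, as were more of all tested genes.

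The genes that carry signals to the AP-1 promoters were counted next. Of 17 tested MAP kinases and MAP kinase-activated kinases, 9 lay below 0 and the median log2 fold change was -0.03. Rps6ka5, a kinase that phosphorylates Creb1 and histone H3 at immediate early genes, fell, from 8.82 and 10.3 CPM in sham to 5.88 and 5.32 CPM in TAC (log2 -0.77, edgeR adjusted p 0.0407). That call was lost without sham 2 (adjusted p 0.113), without TAC 1 (0.0706), without TAC 2 (0.0531) and with the replicate number added to the fit as a block (0.0516). Rps6ka2, a related kinase, was at 54 and 50.7 CPM in sham and at 71.6 and 64.6 CPM in TAC (log2 0.38, edgeR adjusted p 0.0501), and was called higher by DESeq2 (0.025), by limma-voom (0.0491) and without TAC 2 (0.0235). Map2k6, which activates p38 kinases, had the largest log2 value of the list, -0.83, and did not pass.

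Of the 6 genes for serum response factor and its cofactors, 1 rose and 4 lay below 0. Srf, the factor that binds the CArG box, was at 52.8 and 54.3 CPM in sham and at 76.5 and 70 CPM in TAC (log2 0.45, edgeR adjusted p 0.0278), and thus moved against Fos. The call was lost with scaling by total counts (log2 0.26, adjusted p 0.213) and without TAC 1 (log2 0.39, adjusted p 0.085). Of the 8 factors that act on AU-rich mRNAs, only Zfp36, which starts their decay, passed the test: it was at 106 and 52.8 CPM in sham and at 16.1 and 25.7 CPM in TAC. The median of that list was -0.18. Without sham 2, and likewise without TAC 2, 2 genes were called in each of these lists. MAP kinase activity, protein levels and mRNA half-lives were not measured here.

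The possible partners of the members were also counted. Of 12 relatives in the ATF, CREB, JDP and BATF families, 9 were tested, 3 lay below 0 and none was called, with a median log2 fold change of 0.15. Without TAC 2, 3 of them were called higher: Atf1 (log2 0.46, edgeR adjusted p 0.0281), Atf4 (0.50, 0.0207) and Crem (1.23, 0.0181). Crem, a cAMP-responsive regulator, had the largest value, 0.95 (edgeR adjusted p 0.0762), at 2.43 CPM in each sham library and 5.7 and 3.68 CPM in TAC. Of 10 other Maf genes and genes of the CNC family and its Bach relatives, the small Maf gene Mafg among them, 7 were tested, 5 lay below 0 and none was called, with a median of -0.06. Maf itself was at 7.05 and 4.66 CPM in sham and at 1.87 and 3.23 CPM in TAC (log2 -1.21, edgeR adjusted p 0.0672). Maf was the gene called without sham 2 (adjusted p 0.0164), and genes called without TAC 2 included Maf (0.0158) and Nfe2l2 (0.00932). DESeq2 also called Maf (adjusted p 0.0168).

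Of 16 textbook target genes of AP-1, 14 were tested, 10 lay below 0 and the median log2 fold change was -0.47. Only Cd44, a receptor for hyaluronan in the matrix, passed the test, and it rose, from 6.16 and 5.53 CPM in sham to 9 and 9.53 CPM in TAC (log2 0.66, edgeR adjusted p 0.0482). The Cd44 call was lost in 8 of 10 alternatives, among them each fit that left out 1 library (adjusted p 0.0654 to 0.128), although 4 of the list were called without sham 2 and 3 without TAC 2. The lowest values were those of the chemokine Ccl2 (log2 -2.21, edgeR adjusted p 0.0961) and of Ptgs2, the inducible enzyme of prostaglandin synthesis (log2 -1.95, edgeR adjusted p 0.084). Both were rare, at 2.94 and 2.69 CPM in sham 1 and below 1.1 CPM in the other 3 libraries. Without sham 1 the log2 values were -0.97 for Ccl2 and -1.11 for Ptgs2, and DESeq2 called both with all libraries (adjusted p 0.0343 and 0.0441). The 8 heat shock chaperones, another group that answers to stress, were mixed: Hspa8 (0.56), Hspb1 (0.47) and Hsp90aa1 (0.46) rose and Dnajb1 (-0.91) fell, at edgeR adjusted p from 0.0202 to 0.0455. With scaling by total counts Hspa8 was no longer called (log2 0.36, adjusted p 0.107), and Dnajb1 alone of the 8 chaperones was. Dnajb1 in turn was not called without sham 1 (log2 -0.64, adjusted p 0.128), without TAC 1 (adjusted p 0.0671), without TAC 2 (adjusted p 0.0581) or with limma-voom (adjusted p 0.0513).

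**Figure D4:**
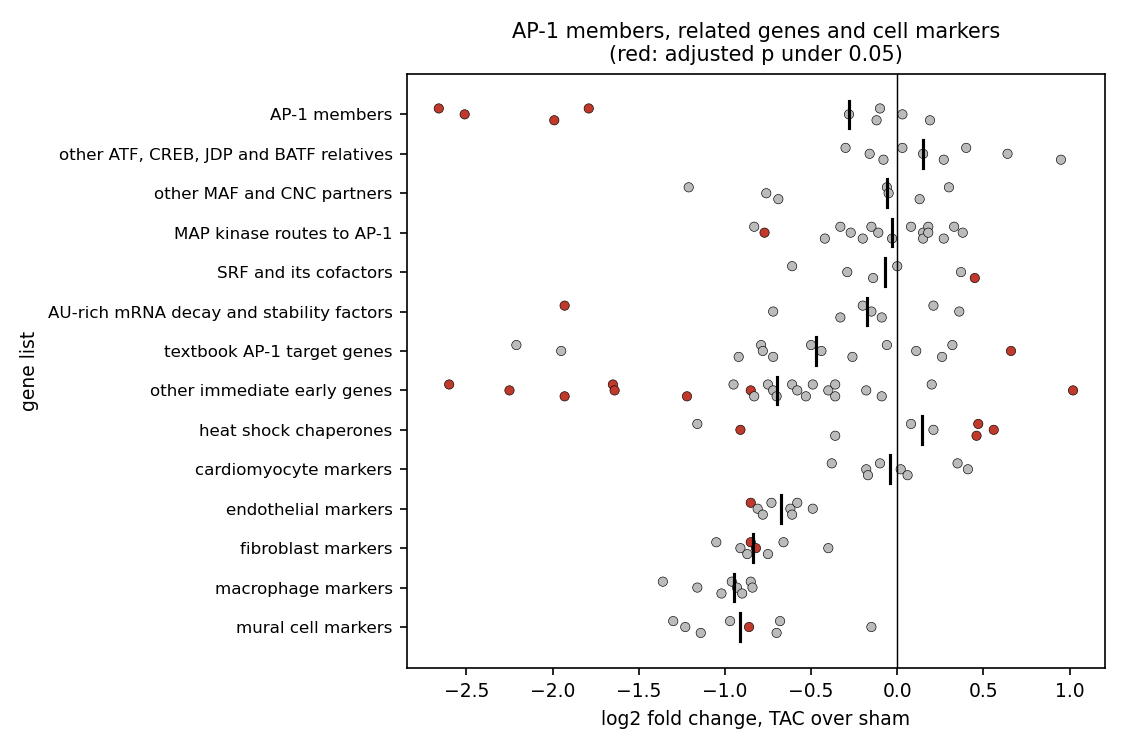
Log2 fold change of TAC over sham for each tested gene of the member list, of the related gene lists and of the cell type markers, with red points at an adjusted p under 0.05 and a bar at the median of each list. The member list has 4 genes at or below -1.79 and 5 near 0, the other immediate early genes have a median of -0.70, and the markers of 4 other cell types have medians from -0.67 to -0.94.

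Markers of other cell types of the heart moved in the same direction as Fos and Jun, by less. All 8 endothelial, 8 fibroblast, 8 macrophage and 8 mural markers lay below 0, with median log2 fold changes of -0.67, -0.83, -0.94 and -0.92, and 4 of the 32 were called (Cdh5, Dcn, Lum and Pdgfrb), all lower, where 2.43% of all tested genes were called lower. The number depended strongly on the libraries, as did the share of all tested genes called lower. The median log2 fold change of the 32 was -0.54 without TAC 1, -0.51 without sham 1, -1.02 without sham 2 and -1.12 without TAC 2. DESeq2 called 7 of the 32, the fit with the replicate block 10 and that with no low-count filter 26, in each case all lower. These settings called 3.82%, 2.38% and 6.05% of all tested genes lower, in the same order. In sham 1, sham 2, TAC 1 and TAC 2, the endothelial markers summed to 546, 422, 251 and 357 CPM and the fibroblast markers to 233, 167, 95.8 and 132 CPM. The macrophage markers summed to 114, 58.3, 29.9 and 57.2 CPM, and the mural markers to 377, 390, 161 and 276 CPM. No marker of these 4 lists was at 0 in any library. The red blood cell markers summed to 84.9, 73.8, 49.9 and 125 CPM, and Slc4a1 was at 0 in sham 1, TAC 1 and TAC 2.

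Between the sham libraries, sham 1 had the higher endothelial, fibroblast and macrophage sums, as it had the higher Fos, Fosb, Jun and Junb levels. The mural sum went the other way, at 377 CPM in sham 1 and 390 in sham 2. Between the TAC libraries, all 4 of these sums and Junb were lower in TAC 1, Fos and Fosb were slightly lower there, and Jun was higher. From sham 2 to TAC 2, the endothelial, fibroblast and mural sums were lower and the macrophage sum was nearly the same. The part of other cell types in the fall of Fos, Fosb, Jun and Junb was not tested.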

How the data were processed

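Cardiomyocyte RNA of 2 sham and 2 TAC mice was sequenced, and groups and replicate numbers came from the sample titles. The authors deposited an expected count and an FPKM value (fragments per kilobase, scaled by library size) for each gene and library. Their processing notes name mm10, Bowtie2 2.2.8 and StringTie 1.3.1 without roles, and the sources used here do not give the counting program, the annotation or any use of strand. Expected counts that were not whole occurred for 1432 to 1519 genes a library, but the counts of all 10 members were whole, and 16 rows carried no gene symbol.

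Expected counts were rounded and analysed in R 4.3.3 with edgeR 4.0.16: filterByExpr, TMM factors from 0.868 to 1.097, glmQLFit and glmQLFTest without a block, and Benjamini-Hochberg adjustment over 12499 genes. The biological coefficient of variation (common) came to 10.5%, and 3438 genes had an unadjusted p under 0.05. The SE is the log2 fold change divided by the square root of F. The edgeR fit was tested on simulated counts. The alternatives were total counts (the scaling of the study), totals without mitochondrial genes, DESeq2 1.42.0, limma-voom (limma 3.58.1), no low-count filter, a replicate block, other thresholds, deposited FPKM and leaving out each library.

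Members and lists were chosen with earlier results of these data known. All members are named, and of other lists each called gene or otherwise up to 3 with the largest log2 fold changes, and the 5 genes most like Fos or Jun. Cell markers are given as lists. Gene positions and 3′UTRs came from GENCODE vM21 and promoters from RefSeq GRCm38.p6. Coordinates are 1-based.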

Additional observations from a re-analysis of the deposited data

How the results depend on the processing

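Of the 9 tested members, 4 were called lower with total counts, DESeq2, no low-count filter, the replicate block and an adjusted p under 0.1, and 3 with limma-voom, totals without mitochondrial genes and an adjusted p under 0.01. Leaving out 1 library gave 3 to 4, with 3 without TAC 1, and no setting called a member higher. Where an arm had 1 library, that mouse was assumed to vary like the other group. Among the members that were not called, the sign turned for Fosl2 without sham 1 (0.11) and without TAC 2 (0.05), for Jund without sham 1 (0.12) and for Atf3 without sham 1 (0.60) and without TAC 2 (0.44). With 1 library left out the log2 fold changes ran from -0.32 to 0.11 for Fosl2, from -0.59 to 0.12 for Jund, from -1.0 to 0.60 for Atf3 and from -0.11 to 0.20 for Maff. Maff turned with total counts (-0.17), with totals without mitochondrial genes (-0.07), without sham 2 (-0.11) and without TAC 1 (-0.00), and Mafk with total counts (-0.01). From deposited FPKM, Mafk was also at -0.01 and Maff at -0.18. Total counts moved the median log2 fold change of all genes by -0.19 and totals without mitochondrial genes by -0.10. The cause of these shifts was not tested.

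The related lists held 15 called genes, against 32 with no low-count filter and 12 to 27 when 1 library was left out (27 without sham 2 and 26 without TAC 2). The study describes its sequenced samples as pairs of sham and TAC mice, without saying which libraries form a pair. Over 12499 genes, the differences between replicates 1 and 2 in sham and in TAC had a correlation of r = -0.242. This cannot show whether same-numbered mice were paired, and the main fit did not read the numbers as pairs. With the replicate block 4 members and 16 list genes were called. A crossed pairing of the numbers, chosen after seeing the data, called 4 members and 32 list genes. Fosb rested on 37 to 40 counts per TAC library, and Fosl1 could not be tested.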
